A study of Mus musculus with 8 samples.

Results

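The class III POU genes Pou3f1, Pou3f2 and Pou3f3 encode the transcription factors also called Oct-6, Brn-2 and Brn-1. They were chosen by gene name, after Pou3f3 had been seen to be raised from near silence in these same data, and 3 of 3 were among the 16096 genes of the deposited table. The difference between genotypes is therefore given for these genes as a description, with no test. The tissue was the peripheral retina, dissected on embryonic day 16.5 from C57BL/6 mice. In 4 libraries the embryos were Pax6alpha-Cre:Ezh2fl/null, with 1 floxed and 1 null allele of Ezh2, and in 4 control libraries they were Pax6alpha-Cre:Ezh2fl/+, with 1 floxed and 1 wild-type allele. Both groups thus carried the Cre driver, which acts in the peripheral retina, and cells without active Cre still held a null allele in the first group only. Ezh2 encodes the methyltransferase of Polycomb repressive complex 2, which places the repressive H3K27 methyl mark on many developmental regulators.

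Every POU protein binds DNA through a POU-specific domain joined by a linker to a POU homeodomain, and several of them recognise the octamer element. Class III members are neural regulators: Pou3f2 and Pou3f3 act together in cortical neuron production and migration, Pou3f1 is needed for timely myelination by Schwann cells, and Pou3f3 also acts in the kidney tubule. In the retina the class IV relatives Pou4f1 to Pou4f3 act in ganglion cells.

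Ezh2 itself did not check the labels, because its whole-gene level was 251 ± 23.1 CPM against 217 ± 18.1 CPM in controls (CPM, counts scaled to a common normalized library size; SD, n = 4 each) and which exons the floxed allele loses is not stated in the labels. Directions below are those of the libraries labelled Ezh2fl/null, written as labelled-null libraries, against the control libraries. Total counts ran from 13994825 to 18391647 per library. Retinal identity was checked with 8 genes, among them Rax, Pax6, Six3, Six6, Lhx2, Sfrp2 and Hes1. All 8 were present, with a summed level of 1857 to 2109 CPM in the labelled-null libraries and 2045 to 2268 CPM in the controls, and the fit described below called 0 of them higher and 1 lower. Labelled-null replicates 2 and 3 had 1874 and 1714 Xist counts and the other 6 libraries at most 4, so the sexes were not balanced. Nothing in the labels says that replicates came from separate litters, so tests measure the spread between these samples.

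Each Pou3f gene has a single exon in GENCODE M21 (mm10). Pou3f3 (ENSMUSG00000045515) lies at chr1:42695768-42703176 on the plus strand, with a coding length of 1494 bases. Pou3f2 (ENSMUSG00000095139) lies at chr4:22482780-22488366 on the minus strand, with a coding length of 1338 bases. Pou3f1 (ENSMUSG00000090125) lies at chr4:124656807-124660655 on the plus strand, with a coding length of 1350 bases. The fourth class III gene, Pou3f4 (ENSMUSG00000056854), is X-linked and has a coding length of 1086 bases. Between any pair of these 4 transcripts the longest identical run was 38 bases (Pou3f1 and Pou3f2), and Pou3f3 shared at most 29 with another. The handling of reads that match more than 1 gene is not stated in the labels. The noncoding AC122898.1 overlaps Pou3f3 on the same strand and Gm2164 overlaps Pou3f1 on the opposite strand. Whether counting used strand is not stated, so counts of these overlapping models may include shared reads. A gene without introns gives no spliced reads, so its counts do not separate mature transcript from other RNA of the locus.

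The start-site windows of Pou3f3, near silent in controls, of Pou3f2, which was already transcribed in controls, and of Pou3f4, which had few counts in either genotype, are printed for comparison. They run from 250 bases before to 50 bases after the RefSeq start (GRCm38.p6, 300 bases each, 5′ to 3′ on the gene's strand) and lie at chr1:42695518-42695817, chr4:22488317-22488616 and chrX:110814129-110814428. Capitals mark CCAAT and its complement ATTGG.
Pou3f3: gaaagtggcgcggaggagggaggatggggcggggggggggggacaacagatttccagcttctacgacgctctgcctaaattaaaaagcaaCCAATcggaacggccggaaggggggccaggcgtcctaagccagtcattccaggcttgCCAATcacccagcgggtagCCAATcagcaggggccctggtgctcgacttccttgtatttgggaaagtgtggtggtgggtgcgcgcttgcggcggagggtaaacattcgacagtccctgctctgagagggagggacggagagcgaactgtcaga
Pou3f2: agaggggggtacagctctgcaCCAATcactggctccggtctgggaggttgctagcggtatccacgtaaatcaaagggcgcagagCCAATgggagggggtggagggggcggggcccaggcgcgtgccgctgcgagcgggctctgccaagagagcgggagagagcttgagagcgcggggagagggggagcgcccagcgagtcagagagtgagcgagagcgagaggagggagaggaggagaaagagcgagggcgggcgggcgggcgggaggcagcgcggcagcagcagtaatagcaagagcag
Pou3f4: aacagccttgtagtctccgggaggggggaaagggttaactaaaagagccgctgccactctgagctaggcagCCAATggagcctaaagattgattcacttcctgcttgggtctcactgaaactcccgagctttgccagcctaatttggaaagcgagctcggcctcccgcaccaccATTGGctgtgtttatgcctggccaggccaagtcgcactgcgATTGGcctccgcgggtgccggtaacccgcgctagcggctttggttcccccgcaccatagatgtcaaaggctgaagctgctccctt

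The CCAAT box, searched on both strands, occurred 3 times in the Pou3f3 window, 2 times in that of Pou3f2 and 3 times in that of Pou3f4. In the Pou3f3 window all 3 copies were in the forward direction, whereas 2 of the 3 in the Pou3f4 window were ATTGG. Of 32851 RefSeq windows of the same length (27025 genes), 37.4% held at least 1 copy, 11.7% at least 2 and 3.37% at least 3. The octamer ATGCAAAT and the TATA element TATAAA, also searched on both strands, were not found in these 3 windows, and 1.74% and 13.6% of all windows held them. GGGCGG, the core of the GC box, occurred 5 times in the Pou3f2 window, in part as overlapping copies in a short repeat at and after the start, 1 time for Pou3f3 and 0 times for Pou3f4, against 35.7% of windows with at least 1. GC content was 60.3% for Pou3f3, 67.7% for Pou3f2 and 57.7% for Pou3f4. The windows held 18, 24 and 15 CpG dinucleotides, more than in 70.3%, 80.0% and 65.4% of all windows. These are matches of letters in a short window and say nothing about binding.

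Pou3f3 was close to silent in control retina and was counted in every labelled-null library. Its counts were 186, 140, 138 and 147 in labelled-null replicates 1 to 4 and 3, 6, 12 and 7 in control replicates 1 to 4. These are 9.995, 9.75, 9.05 and 9.08 CPM against 0.225, 0.393, 0.842 and 0.390 CPM. The groups did not overlap: the lowest labelled-null library was above 9 CPM and each control was under 1 CPM. The mean was 9.47 ± 0.475 CPM in labelled-null libraries and 0.462 ± 0.265 CPM in controls (SD, n = 4), a log2 fold change of 4.34 (SE 0.21), or 20.2-fold. Among labelled-null libraries the coefficient of variation was 5.02%, below the 8.09% that counting alone gives at this depth. Among controls it was 57.3%, where counting alone gives 37.8%, and control replicate 3 had 12 of the 28 control counts. With 3 counts taken as the floor (0.161 to 0.225 CPM, depending on depth), control replicate 1 was at the floor. Without control replicate 3 the log2 fold change was 4.76. In the authors' deposited table Pou3f3 has 3.53 as its log2 ratio, lower than the value fitted here, and the cause of that difference was not tested.

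Pou3f2, the Brn-2 gene, was already transcribed in the controls and was higher in the labelled-null libraries by less than 2-fold. Its levels were 68.8, 58.8, 56.1 and 56.2 CPM in labelled-null replicates 1 to 4 and 39.9, 32.7, 37.5 and 31.9 CPM in control replicates 1 to 4. Each labelled-null library was above each control, and replicate 1 was the highest of its group in both genotypes. The means were 60.0 ± 6.03 and 35.5 ± 3.85 CPM (SD, n = 4), a log2 fold change of 0.76 (SE 0.08), or 1.70-fold. The authors' deposited table lists 0.74.

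Pou3f1, the Oct-6 gene, was slightly lower on average. Its levels were 27.1, 25.5, 31.4 and 30.3 CPM in labelled-null replicates 1 to 4 and 32.1, 32.2, 35.9 and 32.5 CPM in control replicates 1 to 4. The groups did not overlap, but the highest labelled-null library (31.4 CPM) and the lowest control (32.1 CPM) lay closer together than the SD within either group. The means were 28.6 ± 2.72 and 33.2 ± 1.83 CPM (SD, n = 4), a log2 fold change of -0.21 (SE 0.07), and the authors' deposited table lists -0.22. In the fit of all genes (edgeR quasi-likelihood test, called at an adjusted p under 0.05) 11.8% of the 15014 genes were called, 8.35% higher and 3.46% lower. Of these calls 70.7% were higher, and 82.5% with scaling by library size alone. Pou3f2 and Pou3f3 are among the genes past that threshold and Pou3f1 is not, but they were picked on this same contrast, so this is a description and nothing is read from it.

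**Figure D1:**
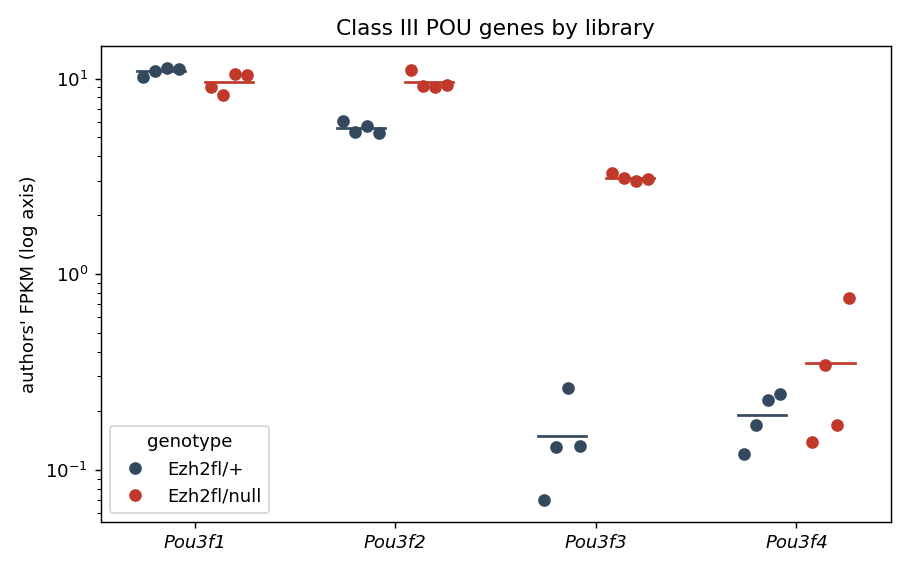
Levels of the 4 class III POU genes in each library, as the authors' FPKM (counts scaled by gene length and library depth) on a log axis. Points are libraries, short lines are group means (n = 4). Pou3f3 lies between 0.0700 and 0.262 FPKM in controls and between 3.003 and 3.301 FPKM in labelled-null libraries, while Pou3f4 spreads over both groups.

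The fourth class III gene stayed at the edge of detection. Pou3f4 had 3, 6, 3 and 14 counts in labelled-null replicates 1 to 4 and 2, 3, 4 and 5 in control replicates 1 to 4. Labelled-null replicate 4 held 14 of the 26 counts of its group, and the other 3 libraries of the group lay within the range of 2 to 6 counts. The filter on low counts left the gene out of the fit. With no filter its log2 fold change was 0.79 (edgeR adjusted p = 0.450), so a difference was not detectable at this depth.

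Compared per length, Pou3f1 led in every control library, whereas Pou3f1 and Pou3f2 were close in the labelled-null libraries. On the authors' FPKM scale the control means were 10.9 ± 0.525 for Pou3f1, 5.59 ± 0.373 for Pou3f2 and 0.149 ± 0.0809 for Pou3f3. In the labelled-null libraries they were 9.58 ± 1.10, 9.63 ± 0.980 and 3.11 ± 0.130 FPKM (SD, n = 4). In each control library Pou3f1 was above Pou3f2 by 1.68 to 2.13 times. In the labelled-null libraries that ratio was 0.820, 0.906, 1.16 and 1.12 in replicates 1 to 4, so the leading pair did not differ beyond its spread and either gene could be first. Pou3f3 was the lowest of the 3 in all 8 libraries. The ratio of Pou3f2 to Pou3f3 was 21.7 to 86.7 in controls and 2.94 to 3.36 in labelled-null libraries.

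The summed level of the 3 genes, as CPM per kilobase of the authors' gene models, was 23.2, 21.03, 22.3 and 21.99 in labelled-null replicates 1 to 4 and 17.1, 16.01, 18.2 and 16.001 in control replicates 1 to 4. The labelled-null libraries were all above the controls. Pou3f1 made up 65.5% ± 2.24 of this sum in controls and 42.9% ± 3.94 in labelled-null libraries. The share of Pou3f2 was 33.6% ± 2.46 and 43.1% ± 3.36, and that of Pou3f3 was 0.884% ± 0.453 and 13.98% ± 0.839 (SD, n = 4). These shares depend on the length assigned to each gene. The authors' FPKM imply 3064 bases for Pou3f3, where RefSeq has 4443 and GENCODE M21 has 7409. With the GENCODE lengths Pou3f3 made up 6.58% of the labelled-null sum, and Pou3f2 was above Pou3f1 in each labelled-null library, by a mean ratio of Pou3f1 to Pou3f2 of 0.699 (range 0.571 to 0.812). With these lengths too Pou3f1 led in each control, with a ratio of 1.17 to 1.48.

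**Figure D2:**
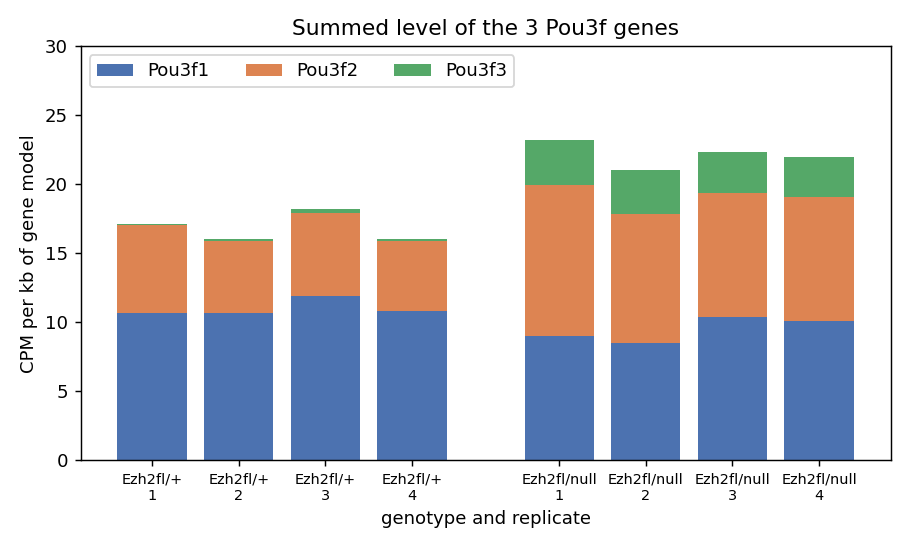
Stacked level of Pou3f1, Pou3f2 and Pou3f3 in each library, as CPM per kilobase of the gene length implied by the authors' FPKM. The 4 control bars reach 16.001 to 18.2 and the 4 labelled-null bars 21.03 to 23.2, with the Pou3f3 segment barely visible in controls.

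Over all tested genes Pou3f3 ranked 32 by log2 fold change. The called genes next above it were Barx1 at log2 4.38, Slc14a1 at 4.39 and Fgf4, a growth factor gene, at 4.47, and those next below were Nts (neurotensin) at 4.23, Mlc1 at 4.06 and She at 4.03. All 6 passed the filter on low counts (0.668 CPM in at least 4 libraries) through their labelled-null libraries alone. These neighbours in rank reached 1.49 to 4.60 CPM in the labelled-null libraries, below the 9.47 CPM of Pou3f3. Of 864 tested genes with a control mean under 1 CPM, 185 were called higher, beside 8.35% over all genes tested. Of those 185, 3 reached at least the labelled-null level of Pou3f3, with Pou3f3 included. Genes this low in controls could pass the filter through their labelled-null libraries, so these counts are a description. Pou3f3 itself reached 0.668 CPM in 4 labelled-null libraries and 1 control library.

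The transcripts around each gene were compared because a change at 1 gene may be shared with its surroundings. Among all genes tested, 8.35% were called higher and 3.46% lower. Within 500 kb of Pou3f3, 6 other genes were in the table and 6 were tested, with 1 called higher and 0 lower. The called neighbour was 2610017I09Rik, named Pantr1 in GENCODE, a long noncoding RNA read from the opposite strand, whose start lies 926 bases from that of Pou3f3. It had 44, 51, 39 and 40 counts in labelled-null replicates 1 to 4 and 1 count in each control. This is 2.74 ± 0.549 against 0.0665 ± 0.00819 CPM (SD, n = 4). Each control value is under the 3 counts that set the floor, so the fitted log2 value of 5.21 depends on the prior count. The gene reached the 0.668 CPM that the filter asks for in 4 labelled-null and 0 control libraries, so it had to differ to be tested, and its call is given as a description. The next genes were not called: Mrps9 was at log2 0.11, the receptor gene Gpr45 at 0.19, Tgfbrap1 at 0.00 (SE 0.06), AI597479 at 0.08 and the LIM protein gene Fhl2, from 1.22 to 1.82 CPM, at 0.57 (SE 0.21, edgeR adjusted p = 0.105).

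Around Pou3f2, which lies in a region with few counted genes, 2 other genes were in the table and neither was called. Fbxl4 was at log2 -0.05 (SE 0.10) and Faxc at 0.06 (SE 0.07). Around Pou3f1, 16 genes were in the table and 15 were tested, with 1 called higher and 0 lower, at a median log2 fold change of 0.02. The called gene was the ephrin receptor gene Epha10, whose start lies 224 kb away, at 5.94 ± 0.451 against 4.10 ± 0.178 CPM (log2 0.54; edgeR adjusted p = 0.00502). The nearest tested neighbours of Pou3f1, Utp11l and Fhl3, were at log2 0.05 and 0.15 and were not called. The cell division gene Cdca8, at log2 -0.20, was also not called (edgeR adjusted p = 0.0525; not called in 14 of 19 alternatives). The other tested neighbours, such as 1110065P20Rik at log2 0.10 and Sf3a3 at -0.06, were not called.

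**Figure D3:**
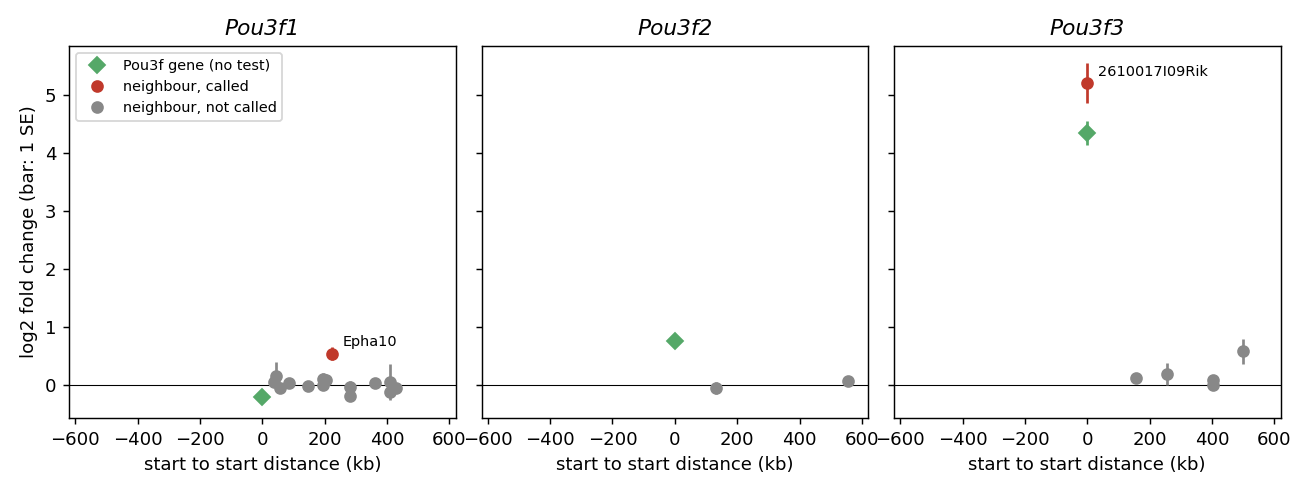
Log2 fold change (labelled-null minus control, bars 1 SE) of tested genes against the distance from their start to the start of each Pou3f gene, in kilobases along its strand. The called neighbours are 2610017I09Rik (5.21) beside Pou3f3 (4.34) and Epha10 (0.54) near Pou3f1, and the other points are grey.

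The other POU genes moved in both directions. Of 12 listed, 8 were in the table and 7 were tested, with 2 higher, 2 lower and 3 not called. Their median log2 fold change was -0.01, the same as the -0.01 over all genes tested, of which 8.35% were called higher and 3.46% lower. Pou1f1, Pou2f3, Pou5f1 and Pou5f2 were absent from the table. Pou4f3, a regulator of ganglion and hair cells, rose by log2 1.24 (SE 0.11), from 21.1 ± 3.86 to 50.0 ± 4.54 CPM (SD, n = 4), at an edgeR adjusted p = 2.07e-06. Its relative Pou4f2 fell by 0.96 on the log2 scale (SE 0.10; edgeR adjusted p = 1.07e-05), with 35.2 ± 5.44 CPM against 68.5 ± 7.10 CPM in controls, whereas Pou4f1 was at log2 0.20 (edgeR adjusted p = 0.0528). In class VI, Pou6f1 rose by log2 0.42. The class II genes Pou2f1 and Pou2f2, the first of which acts in early retinal fate choice, were at log2 -0.01 and -0.13 and were not called.

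**Figure D4:**
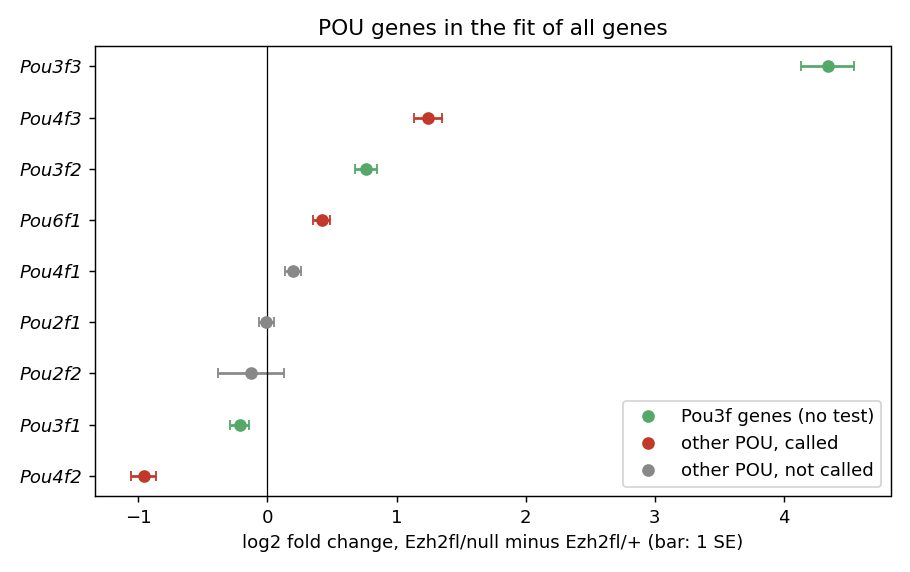
Log2 fold change of 9 tested POU genes with bars of 1 SE. Pou3f3 lies at 4.34, Pou4f3 at 1.24 and Pou3f2 at 0.76, and Pou4f2 is lowest at -0.96. The Pou3f genes are drawn without a test.

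Proteins that act beside class III POU factors were measured next. Sox proteins bind next to them on neural enhancers, and Myt1l takes part in neuronal conversion together with Pou3f2. Of 12 such genes, all were in the table and 11 were tested. The fit called 2 higher and 1 lower and left 8, at a median log2 fold change of 0.00, where 11.8% of all genes tested were called. Sox1, a SoxB1 gene, rose by log2 1.84 (SE 0.19), from 3.10 ± 1.18 to 11.1 ± 1.66 CPM, at an edgeR adjusted p = 1.07e-05. Its relatives were not called: Sox2 was at log2 0.03 and Sox3 at 0.18. Myt1l rose from 62.0 ± 7.83 to 78.0 ± 3.82 CPM (log2 0.33; edgeR adjusted p = 0.00911), a call lost in 2 of 19 alternatives, and the proneural gene Neurog2 fell by 0.29 on the log2 scale, a call lost in 1 of 19. Sox4, Sox11, Sox12, Myt1 and Pax6 lay between log2 -0.10 and 0.13 and were not called, and Sox21 was not tested.

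Genes linked to class III POU factors elsewhere were measured as well. Of 15 listed, 11 were in the table and were tested, with 1 higher, 2 lower and 8 not called, at a median of 0.01, where 11.8% of all genes tested were called. With a replicate block 5 of them were called. The higher one was Gata2, at 1.63 ± 0.307 against 0.416 ± 0.115 CPM, which also passed the filter through its labelled-null libraries alone. The Notch effector Hes5 fell by 0.41 on the log2 scale (edgeR adjusted p = 0.00654). Fabp7, a glial lipid carrier gene with POU sites, was at log2 0.24 (edgeR adjusted p = 0.102). The hypothalamic hormone genes Crh, Avp and Oxt, which need Pou3f2, and the Schwann cell factor Egr2 were absent from the table. Of 9 upper layer cortical neuron genes, the neurons in which Pou3f2 and Pou3f3 act, 2 were higher, 1 lower and 6 not called, at a median of -0.05. Bhlhe22 rose by log2 0.71 and Mdga1 by 0.36, and Rorb was at -0.13. Of 12 kidney tubule genes, 10 were absent from the table, among them Umod and Slc12a1. The measured pair, Pax8 (log2 4.79, from 0.0816 CPM) and Lhx1 (log2 0.98), rose. Pax8 passed the filter through its labelled-null libraries alone.

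Markers of cells that could carry these genes were read beside them. In bulk tissue a change in the number of cells of a type and a change in RNA per cell cannot be told apart. For comparison, 8.35% of all genes tested were called higher and 3.46% lower. Among 14 genes of amacrine and horizontal cells the fit called 6 higher and 1 lower and left 7 (median 0.25), with Meis2 at log2 1.15, Calb2 at 1.35, Tfap2c at 0.56 and Tfap2b at 0.35. Their summed level was 835 to 914 CPM in labelled-null libraries and 582 to 623 CPM in controls, without overlap. Meis2 (181 against 81.5 CPM) and Calb2 (201 against 78.6 CPM) made up most of that difference. Of 16 ganglion cell genes, 1 was higher, 5 lower and 10 not called (median -0.12), with Thy1 at log2 1.45, Atoh7 at -0.80 and Eomes at -0.67, and the sums overlapped (2931 to 3180 against 3130 to 3451 CPM). Pou4f1 and Pou4f2 are in this list and in the POU list, and Lhx1, called higher, is in the amacrine and horizontal and the kidney lists. The part of these cell types in the levels of the Pou3f genes was not tested.

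Among markers of tissue from outside the retina, lens genes had the lowest summed levels and endothelial and blood genes the highest. The shares called over all genes tested, 8.35% higher and 3.46% lower, apply here too. Of 13 forebrain and hypothalamus genes, 7 were absent from the table, among them Emx1, Emx2, Nkx2-1, Sim1, Otp and Gsx2, and the rest summed to 29.1 to 41.6 CPM in labelled-null libraries and 39.0 to 47.2 CPM in controls. Among the 5 tested, Tbr1, a cortical and ganglion cell factor, rose by log2 3.11 to 4.88 CPM and Neurod2 by 1.20 (a call lost in 5 of 18 alternatives), both with 1 control library at the filter's level, whereas Dlx1 fell by 0.78 and Dlx2 by 0.80 on the log2 scale. Of 10 Schwann cell and neural crest genes, Sox10 and Egr2 were among those absent, and of 6 tested, 2 were higher and 4 not called. These were Pmp22 at log2 0.28 and Erbb3 at 0.63, calls lost in 4 and 14 of 19 alternatives. The Schwann cell and neural crest sums did not overlap (101 to 113 against 84.3 to 97.0 CPM), and their part in the Pou3f levels was not tested. Of 12 periocular mesenchyme genes, 10 were tested, with 5 higher and 5 not called (median 0.86), and sums of 32.1 to 86.6 and 23.8 to 54.8 CPM that overlapped. The transcription factors Twist1 (log2 3.83) and Prrx1 (1.93) and the receptor gene Pdgfra (1.01) rose, of which Twist1 passed the filter through its labelled-null libraries alone. The 5 not called were the matrix genes Col1a1 (log2 0.17), Col1a2 (0.21), Col3a1 (0.72), Postn (0.66) and Dcn (0.50). Col1a1 was at 14.1 ± 9.48 CPM in labelled-null libraries against 12.2 ± 6.85 CPM in controls. The part of mesenchyme in the Pou3f levels was not tested. Pigment epithelium genes were called for 1 of 7 tested (Rlbp1, log2 0.43, lost in 10 of 19 alternatives), at a median of -0.12. Not called were Tyr (log2 -0.50), Pmel (-0.44), Dct (-0.17), Tyrp1 (-0.12), Best1 (0.03) and Mitf (0.05). Lens genes were called for 0 of 2 tested, Bfsp1 and Mip (edgeR, with 0 at an unadjusted p under 0.05 and 0 with DESeq2). The filter left out every crystallin gene of that list that was in the table. Cryaa, for example, was at 0.568 ± 1.01 against 1.01 ± 1.97 CPM (SD, n = 4). Endothelial and blood genes were called for 2 of 10, with Cldn5 at log2 0.43 and Kdr at -0.24. The summed levels of these 3 lists overlapped between the genotypes: 24.1 to 38.1 against 18.9 to 47.8 CPM for pigment epithelium, 3.81 to 12.7 against 3.23 to 16.8 CPM for lens, and 415 to 1163 against 493 to 1598 CPM for endothelium and blood.

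**Figure D5:**
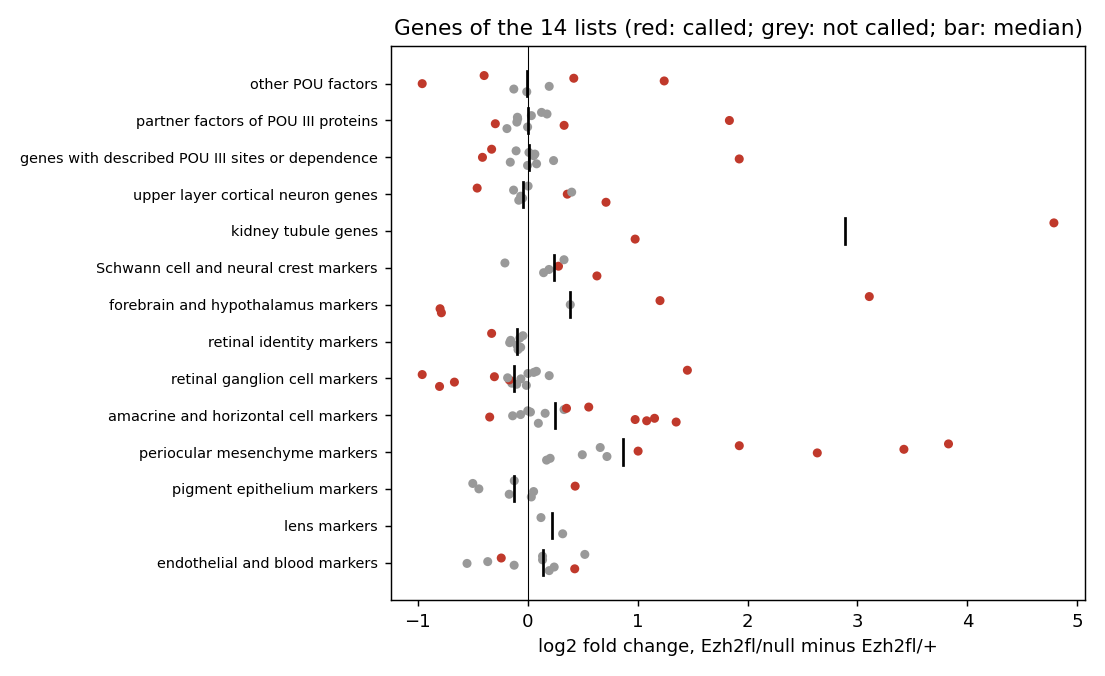
Log2 fold change of each tested gene in the 14 lists. Red points were called, grey points were not, and the black bar is the median of the list. The lists of POU factors and of POU partners have medians near 0 with called genes on both sides, and the highest point is Pax8 at 4.79.

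Genes with a pattern over the 8 libraries like that of each Pou3f gene were listed by Pearson's r of log2 CPM, with genes averaging under 1 CPM left out. All points share the libraries and the genotype difference, so r is a description. For Pou3f3 the closest were Alx1 (r = 0.998), a craniofacial homeobox gene at 5.08 ± 0.461 against 0.0829 ± 0.0898 CPM, then Sh3pxd2a (0.994), Hexa (0.993), Hoxb9 (0.992) and Col9a3 (0.992). Their fold changes were unlike that of Pou3f3 in size: log2 0.30 for Sh3pxd2a, 0.22 for Hexa and 0.41 for Col9a3, and Hoxb9 had 1 control library with any count. Alx1 and Hoxb9 met the mean of 1 CPM through their labelled-null libraries alone, so their high r is in part set by that selection. For Pou3f2 the 5 closest included Slc6a11 (0.995), Slc2a13 (0.994), Crtac1 (0.991) and F5 (0.985). Slc6a11, a GABA transporter gene, was at log2 0.78. For Pou3f1 they were Cers1 (0.991), Gdf1 (0.984), Fam104a (0.981), Stard4 (0.973) and Gba2 (0.972), all at a log2 fold change of -0.10 to -0.35. Cers1 and Gdf1 had nearly equal levels in each library (13.3 and 13.4 CPM in labelled-null replicate 1) and their gene models overlap on the same strand, so their counts may share reads. Among the 3 genes r was 0.928 for Pou3f2 and Pou3f3, -0.753 for Pou3f1 and Pou3f2 and -0.685 for Pou3f1 and Pou3f3 (n = 8).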

How the data were processed

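RNA libraries of 4 Ezh2fl/null and 4 Ezh2fl/+ peripheral retina samples were compared. The submitters' processing notes name Novoalign 2.08.01, DESeq2 and the mm10 build. No label states the counter, the annotation or the filter. The authors deposited raw counts per gene, with a lowest row sum of 18. The authors' FPKM are scaled by gene length and depth and were used for levels between genes. The authors' log2 ratio was printed as deposited. Their deposited adjusted p values have no named scale, were recorded as a score and were left out.

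The members and lists were chosen with earlier results of these data known. Counts were fitted with edgeR 4.0.16 (R 4.3.3): TMM, filterByExpr with a minimum count of 10, quasi-likelihood test, Benjamini-Hochberg adjustment over 15014 genes, called under 0.05. The filter left out 1082 genes. Standard errors follow from the F statistic. CPM use normalized library sizes, and list sums use total counts. Of rows sharing a symbol, that with most counts was taken. Coordinates came from GENCODE M21 by Ensembl identifier (15833 matched, 263 did not). Promoter windows came from RefSeq (2 of 3 members matched). The pattern measure used log2 CPM with a prior count of 0.5. The fit was tested on simulated data. Named genes were the members, tested genes within 500 kb, all tested genes of the POU and partner lists, up to 4 genes of smallest p in each other list, the 5 most alike per member, and the 3 called genes on each side of Pou3f3 by fold. Neighbours that were not called are given in part by count, and some genes under this rule are not reported here. Alternatives (19) changed normalization, filter, test, replicate block, sex, mitochondrial counts and libraries.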

Additional observations from a re-analysis of the deposited data

Results flagged for a closer look

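In 11 of 200 groups of 4 libraries (100 genes), 1 library lay far from the other 3 by Dixon's criterion, and chance flags about 1 in 20 groups. Among the Pou3f genes this was Pou3f1 in control replicate 3, at 35.9 CPM against 32.1 to 32.5 CPM in the other controls. Stard4, one of the 5 genes most like Pou3f1, was also highest there, at 61.4 CPM against 53.3 to 53.9 CPM. The divergent noncoding neighbour of Pou3f3, 2610017I09Rik, was highest in labelled-null replicate 2, at 3.55 CPM against 2.36 to 2.56 CPM. The further neighbours Mrps9 and Tgfbrap1 were highest in labelled-null replicates 1 and 4, at 33.3 CPM against 27.6 to 28.3 CPM and at 39.4 CPM against 35.1 to 35.7 CPM.

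In control replicate 1 Atoh7 was lowest, at 69.3 CPM against 86.0 to 88.5 CPM. Lhx1 was lowest there too, at 1.65 CPM against 2.06 to 2.10 CPM. In control replicate 3 Pmp22 was highest, at 30.1 CPM against 25.1 to 25.3 CPM, and Hoxb9 had 0.0701 CPM against 0 in the other controls. In control replicate 2 Tfap2c was highest, at 12.3 CPM against 10.2 to 10.5 CPM, and Barx1 was at 0.196 CPM against 0.0557 to 0.0749 CPM.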

How the results depend on the processing

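The log2 fold changes of the 3 Pou3f genes moved by less than their spread between libraries in all 19 alternatives: 4.13 to 4.76 for Pou3f3, 0.69 to 0.83 for Pou3f2 and -0.26 to -0.17 for Pou3f1. None of these 3 fold changes was reversed in direction. The other results compared are counts of called genes, which have no direction. Genes called higher fell from 1253 to 800 with male libraries alone and 795 with sex as a covariate. Genes called lower fell from 520 to 273 with library size alone, 255 with male libraries alone, 246 with sex as a covariate and 323 without the pair of libraries with lens crystallin counts. That pair was labelled-null replicate 2 and control replicate 1. With library size alone 82.5% of calls were higher, against 70.7%. Leaving out 1 library at a time gave 1008 to 1233 higher and 329 to 667 lower, the lowest without control replicate 3. Among lists, called POU partner genes went from 3 to 5 with DESeq2 and 1 with sex as a covariate, and retinal identity genes from 1 to 2 with DESeq2 size factors and 2 with DESeq2. Periocular mesenchyme genes went from 5 to 3 with a mean of at least 1 CPM. Schwann cell and neural crest genes went from 2 to 1 with DESeq2 size factors, DESeq2 or the replicate block, and 0 with male libraries, with sex as a covariate or without the pair with lens counts. Pigment epithelium genes went from 1 to 0, and endothelial and blood genes from 2 to 0, 0 and 1, in those same 3 settings. Leaving out 1 library gave 0 to 2 Schwann cell, 0 to 1 pigment epithelium, 1 to 3 endothelial and 1 to 2 retinal identity genes. The cause of these shifts was not tested.

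Replicate numbers are not stated to pair the samples. Deviations of same-numbered libraries correlated at 0.239, -0.105, 0.0147 and 0.183 for numbers 1 to 4 over genes. With a replicate block, calls were 1179 higher and 497 lower, Pou3f3 was at log2 4.34, Pou3f2 at 0.76 and Pou3f1 at -0.22, and genes linked to POU III factors went from 3 to 5 called. Not every library correlated best with its own number.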
